A study of Homo sapiens with 8 samples.

Results

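Methylation of adenosine at the N6 position (m6A) is the most common internal modification of mammalian messenger RNA. A nuclear enzyme complex built around METTL3 and METTL14 writes it, FTO and ALKBH5 can remove it, and YTH domain proteins bind it and act on the stability and translation of the transcript. The mark is known to gather around the stop codon and in long internal exons, at adenosines inside a short motif whose most favoured form is GGACT. The regions described here are the m6A peaks that the authors annotated as lying around the stop codon, in cultures labelled HepG2, a human hepatocarcinoma line. All entries with that label were taken from the deposited peak table, which gave 10248 of its 37501 peaks. They fell in 4227 gene models, all of them coding, of 25918 models in the table.

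The table covered 4 treatments. Cells were exposed to 0.04 J/cm2 of UV and left to recover for 4 hours, or kept at 43 °C for 30 minutes, or treated overnight with 10 ng/ml HGF/SF (hepatocyte growth factor, the ligand of the receptor MET) or with 200 ng/ml IFNg (interferon gamma). Polyadenylated RNA was fragmented to short pieces and precipitated with an antibody to m6A. Each treatment had 1 precipitated library and 1 input library, 8 libraries in all, and no untreated sample was analysed here. There were therefore no replicates, no test across samples was possible, and the exact Clopper-Pearson 95% intervals given with shares cover counting error only. The depth of the libraries is unknown, because the table gives peaks, a score per peak and an expression rank per gene model, but no counts.

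The label of the cells was checked against hepatocyte markers by expression percentile, the rank of a gene model within its treatment from 0 to 100. Models with the lowest value form a tied floor, at percentile 45.5 after UV, 32.7 after heat shock, 20.4 with HGF and 18.4 with IFNg. Of 14 hepatocyte markers, 10 were at that floor after UV, 6 after heat shock, 3 with HGF and 2 with IFNg. The fibrinogen chain gene FGB and the apolipoprotein gene APOH were at the floor in all 4 treatments, and ALB (albumin), AFP (alpha-fetoprotein) and APOB stayed below percentile 60 in each. TTR (transthyretin) was higher, at percentile 76.1 after UV and 71.5 after heat shock, and at 43.0 with HGF and 42.0 with IFNg. The 2 markers at percentile 90 or more in every treatment were KRT8 and KRT18, keratins of many simple epithelia. KRT7, a keratin of bile duct and other ductal epithelia, was at percentile 99.8 after UV, 99.7 after heat shock, 99.2 with HGF and 99.7 with IFNg. It was the only 1 of 14 markers of other cell types at percentile 90 or more in any treatment. The median of these 14 was 45.5 after UV, 35.9 after heat shock, 44.3 with HGF and 49.8 with IFNg, and 9 of them were at the floor after UV. The data thus went against the label at most of the defining markers of hepatocytes, and HepG2 is used below only as the name on the libraries.

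The share of annotated peaks that lay around the stop codon was close in the 4 lists. After UV it was 27.2% (95% interval 26.4 to 27.98%), 3521 of 12945 peaks. After heat shock 2624 of 9585 peaks carried the label, or 27.4% (26.5 to 28.3%). With HGF 2607 of 8856 did, or 29.4% (28.5 to 30.4%), and with IFNg 1496 of 5165, or 28.96% (27.7 to 30.2%). The lists thus differed far more in length than in this share. A gene model rarely had more than 1 such peak in a treatment: 3333 of 3427 models had 1 after UV and 1413 of 1454 with IFNg. Among coding genes, represented by 1 model each, 17.5% had a stop codon peak after UV, 13.0% after heat shock, 12.9% with HGF and 7.43% with IFNg, and 21.5% had one in at least 1 treatment.

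The models with these peaks were mostly well expressed, although not those of the highest rank most often. Their median percentile was 79.7 after UV, 80.6 after heat shock, 80.0 with HGF and 83.9 with IFNg. After UV the share of coding genes with a stop codon peak was 3.39% below percentile 60, 34.5% (32.9 to 36.0%) from percentile 75 to 90 and 27.3% (23.3 to 31.6%) at percentile 98 or more. The same shape was seen with IFNg, at 0.521% below percentile 60, 18.2% (16.9 to 19.4%) from 75 to 90 and 13.7% (10.7 to 17.1%) at 98 or more. Between 45.3% (UV) and 65.3% (IFNg) of the models with a stop codon peak had no annotated peak of another kind in that treatment.

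To place the peaks on real transcripts, each model was compared with the GENCODE 29 transcripts of the same gene on GRCh38. The coordinates in the table are of another build, so a transcript was accepted only where its genomic span and the number and length of every exon holding a peak were equal. This held for 365 models, or 8.63%, with 867 of the stop codon peaks. The matched peaks had a longer median exon than all stop codon peaks, 1923 against 1563 nt, and nearly the same median score, 3.85 against 3.82. They are used below for position and sequence.

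Sequences of 9 sites that were listed in all 4 treatments, lay in a matched model and held GGACT within 50 nt of the median peak position are printed first. They have the highest mean score ranks, a measure explained below, among such sites whose sequence can be printed here, and were chosen after their values were seen. Each line gives 12 transcript bases on either side of the motif, from GENCODE 29 on GRCh38, written 5′ to 3′ on the gene's strand with the motif in capitals.
SETD5, chr3:9476068-9476096, plus strand, coding: aagactcagacgGGACTttcctagggctt
FBXL15, chr10:102423007-102423035, plus strand, 3′ UTR: cggagcacagctGGACTgtgtggctgggg
VANGL1, chr1:115691250-115691278, plus strand, coding: ccttaagtgcttGGACTtcagcctcgtag
ADCY7, chr16:50315438-50315466, plus strand, coding: aaggcgagctgaGGACTtactttgtctgt
FNDC3A, chr13:49207226-49207254, plus strand, coding: tcatctctcagaGGACTgaaccaccagcc
KRT80, chr12:52171335-52171363, minus strand, 3′ UTR: ctgcagcaggagGGACTtaagctagactc
LAMC1, chr1:183142667-183142695, plus strand, coding: ggctgccatcatGGACTataaccgagata
GBA2, chr9:35737215-35737243, minus strand, coding: aaacagggcacaGGACTaaggacagggcc
TM9SF4, chr20:32165492-32165520, plus strand, 3′ UTR: accctgcgtgggGGACTgcaggcacgcaa

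Counted from the first base of the stop codon, the A of the motif lay at -7 nt in SETD5, a gene for a SET domain protein, and at -51 nt in ADCY7, an adenylate cyclase. It lay at 30 nt in FBXL15, an F-box protein of ubiquitin ligases, and at 64 nt in TM9SF4. In LAMC1 (the laminin gamma 1 chain), VANGL1 (a planar cell polarity protein) and FNDC3A it was further into the coding sequence, at -107, -113 and -153 nt. The motif thus stood on both sides of the stop codon among these sites. Counted from the median peak position instead, the A lay nearest in TM9SF4, at 12 nt, and furthest in SETD5, at -42 nt.

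In a further pair of matched sites found in all 4 treatments the motif ran into the stop codon itself, so that the last base of GGACT is the first of TGA. They are shown for that overlap, together with EPC1, whose exon at the site is among the shortest.
TAP2, chr6:32828845-32828873, minus strand, across the stop codon: gcagcggctgatGGACTgaggccccaggg
FIZ1, chr19:55592440-55592468, minus strand, across the stop codon: gcaccggggcatGGACTgactgccaggct
EPC1, chr10:32269019-32269047, minus strand, 3′ UTR: actgcagcctggGGACTtgattaggtgct
TAP2 encodes a chain of the transporter that loads peptides onto MHC class I, and EPC1 a subunit of the NuA4 acetyltransferase complex. In TAP2 and FIZ1 the methylatable A lay at -2 nt, and in EPC1 at 32 nt after the stop codon. From the median peak position it lay at -49 nt in TAP2, -18 nt in FIZ1 and 12 nt in EPC1.

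Of the 867 matched peaks, 849 (97.9%) lay within 200 nt of the first base of the reference stop codon, and the median position was 15 nt after it (quartiles -62.5 and 91.5 nt). The peaks were chosen by a label that places them there, so this share describes the match to the reference and is no result about m6A. A total of 382 peaks, or 44.1% (40.7 to 47.4%), lay before the stop codon. The medians by treatment were 12 nt for UV, 11 nt for heat shock, 21 nt for HGF and 18.5 nt for IFNg, small beside the spread of the peaks. The 18 peaks beyond 200 nt belonged to 9 genes, among them CARD8, KAT5 and LEPRE1. In KAT5 the peaks of all 4 lists were 295 to 309 nt after the stop codon of the matched transcript.

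**Figure D1:**
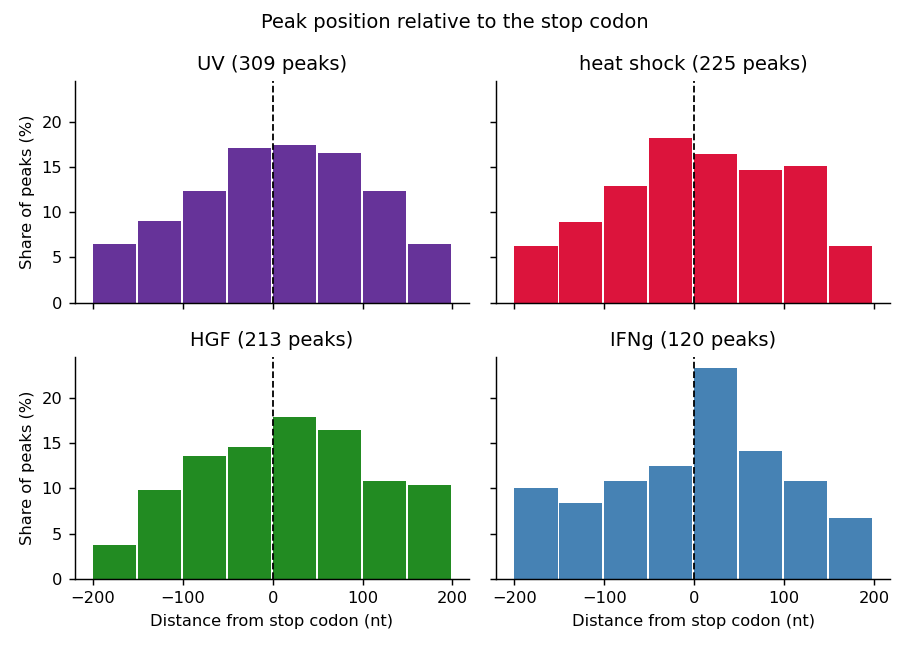
Peak positions relative to the first base of the stop codon (x axis, nt, 50 nt bins; negative values are in the coding sequence) as a share of the matched peaks of each treatment (y axis, %), with 1 panel per treatment and the stop codon as a dashed line. Peaks beyond 200 nt are not drawn; in each treatment the bins beside the stop codon are taller than the outermost ones, with medians 11 to 21 nt after it.

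Nearly all matched peaks were in the last exon. This was so for 853 of 867 peaks, 98.4% (97.3 to 99.1%), and the stop codon itself was in the last exon in 97.0% of the matched models. The label places the peaks near the stop codon, so this share is largely set by the choice of peaks. In the 353 models with more than 1 exon, the median peak lay 258 nt after the start of the last exon (quartiles 157 and 470 nt), and the median stop codon 208 nt after it.

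The side of the stop codon on which a peak fell went with the distance from the stop codon back to the last splice junction. Where the stop codon was in the first 100 nt of the last exon, 27.7% (19.6 to 36.9%) of 112 peaks preceded it and the median position was 63 nt after it. Where it was over 100 and up to 200 nt in, 31.4% (25.6 to 37.7%) of 242 peaks preceded it, with a median of 39 nt. From there to 400 nt the share was 49.8% (43.0 to 56.6%) of 219 peaks, and beyond 400 nt it was 63.5% (57.1 to 69.6%) of 244 peaks, with a median of -45 nt. In the matched models peaks thus sat mostly after a stop codon that was near the junction and more often before one that was far from it. The peaks of these groups came from 51, 106, 87 and 98 models in turn. A site listed in several treatments enters several times, so these intervals, like the others over matched peaks, are too narrow.

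Few peaks crossed that junction. With the stop codon in the first 100 nt of the last exon, earlier exons made up on average 34.5% of the 200 nt on each side of the stop codon, and they held 9 of the 112 peaks, or 8.04% (3.74 to 14.7%). At over 100 and up to 200 nt earlier exons made up 13.4% of that window and held 1 of 242 peaks, 0.413% (0.0105 to 2.28%). In the 11 models whose stop codon was in an earlier exon, 4 of 23 peaks were before the last exon. Earlier exons thus held a smaller share of the peaks than of the window.

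**Figure D2:**
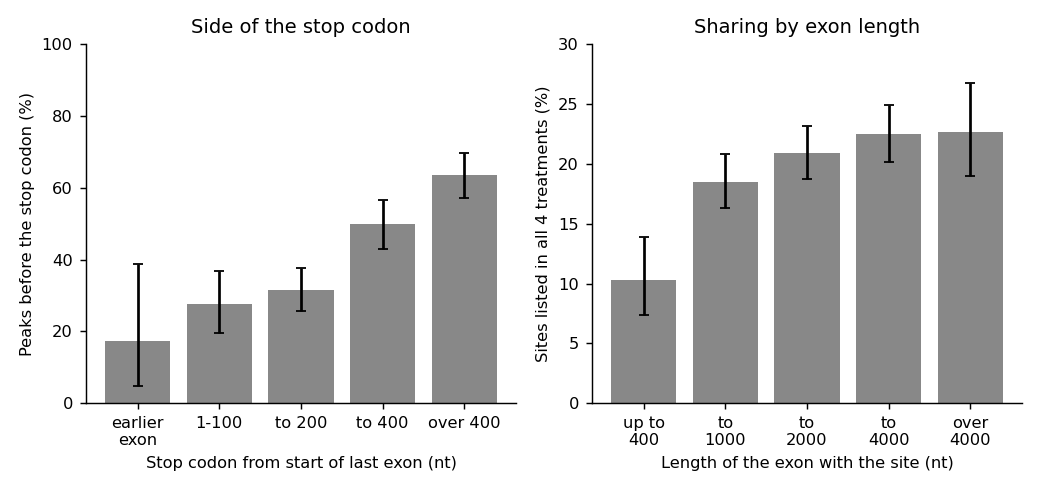
Left, share of matched stop codon peaks that lie before the stop codon (y axis, %), by the distance of the stop codon from the start of the last exon (x axis, nt; the first bar has the stop codon in an earlier exon). Right, share of stop codon sites listed in all 4 treatments (y axis, %), by the length of the exon that holds the site (x axis, nt); bars are shares and lines are 95% Clopper-Pearson intervals, and the left shares run from 27.7% at 1 to 100 nt to 63.5% beyond 400 nt. On the left, a site listed in several treatments enters several times.

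GGACT was found within 50 nt of 250 of the 867 matched peaks, 28.8% (25.8 to 32.0%), reading the transcript strand. Its reverse complement AGTCC, searched on the same strand, was found at 4.96% (3.61 to 6.62%). Windows of the same length held GGACT at 9.80% (7.91 to 11.98%) when centred 200 nt before the peak and at 6.02% (4.45 to 7.92%) when centred 200 nt after it. The share was 29.1% after UV, 31.1% after heat shock, 26.8% with HGF and 27.5% with IFNg, with intervals that overlapped. Coding peaks of the same models held it at 23.6% (20.7 to 26.7%) and 3′ UTR peaks at 28.1% (23.1 to 33.4%). The shorter GGAC was near 64.2% of the stop codon peaks. Since a site listed in several treatments enters several times, each was also counted once, which gave 27.0% (22.7 to 31.7%) of 392 sites for GGACT and 6.12% for AGTCC. These are matches of letters and not measured modification sites.

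Counting by the A of the nearest GGACT rather than by the whole motif inside the window, 260 peaks had it within 50 nt and 143 within 25 nt, at a median of 7 nt before the deposited position. The UV peaks with GGACT had a median score of 5.02 and those without it 4.22. The difference was smaller in the other lists, at 3.92 and 3.85 after heat shock, 3.85 and 3.54 with HGF, and 3.31 and 3.05 with IFNg, and in every list the quartiles of peaks with and without the motif overlapped.

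Genes could also be read from the side of the sequence. Of 6041 coding genes at a mean percentile of 75 or more, 5329 (88.2%) had a usable reference transcript. GGACT occurred within 200 nt of the stop codon in 28.8% (27.2 to 30.4%) of the 2975 genes without a stop codon peak. It occurred in 42.5% (40.1 to 44.8%) of the 1754 genes with a peak in 1 to 3 treatments, and in 56.8% (52.8 to 60.8%) of the 600 genes with a peak in all 4. AGTCC stood at 25.8%, 29.7% and 25.7% in the same groups, without a rise along them. The exon with the stop codon had a median length of 911, 1411 and 1880 nt, while the median expression percentile was 86.7, 87.0 and 86.1. These groups were not tested against each other. Among the 365 matched models the stop codon was TGA in 187 (51.2%), TAG in 98 and TAA in 80.

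To follow sites across treatments, stop codon peaks of the same model were joined where neighbouring positions were within 100 nt, which gave 4575 sites. A total of 917 sites, 20.04% (18.9 to 21.2%), were listed in all 4 treatments, 884 in 3, 1108 in 2 and 1666 in 1. Over sites of any label joined the same way 16.5% were listed in all 4 treatments, and over sites of the other labels, joined within the label, 14.1%. Coding sites reached 16.1% (15.3 to 16.9%), 3′ UTR sites 15.8% (14.6 to 17.0%) and transcript start sites 1.73% (1.12 to 2.54%). Among models at a mean percentile of 75 or more the shares were 23.1% (21.6 to 24.7%) for stop codon sites, 16.8% (15.7 to 17.9%) for coding and 17.8% (16.2 to 19.4%) for 3′ UTR sites. The stop codon sites thus had the highest share in both settings, with intervals that did not overlap those of the other labels. The labels are not alike in extent, however. The stop codon label confines peaks to a short stretch of a model, with 97.9% of matched peaks within 200 nt of the stop codon. Peaks there can fall within the joining distance more easily than peaks spread over longer segments. Stop codon peaks also had higher median scores. The bearing of either on the share was not tested. The count of 917 was 507 when peaks with a score under 3 were left out.

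The combinations were uneven in size. After the sites in all 4 treatments, the most frequent groups were 876 sites listed with UV alone, 651 with UV, heat shock and HGF, and 604 with UV and heat shock. HGF alone had 407, heat shock alone 195 and IFNg alone 188, although the HGF and heat shock lists were of nearly equal length. A site listed in 1 treatment alone is one without a stop codon peak joined to it from the other lists. A nearby peak under another label did not count, and where any label could match, 1016 sites were in all 4 treatments. The same holds wherever a site is called unlisted below. Such a site is not shown to be unmethylated in the other treatments, and the longest list had the most of them.

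**Figure D3:**
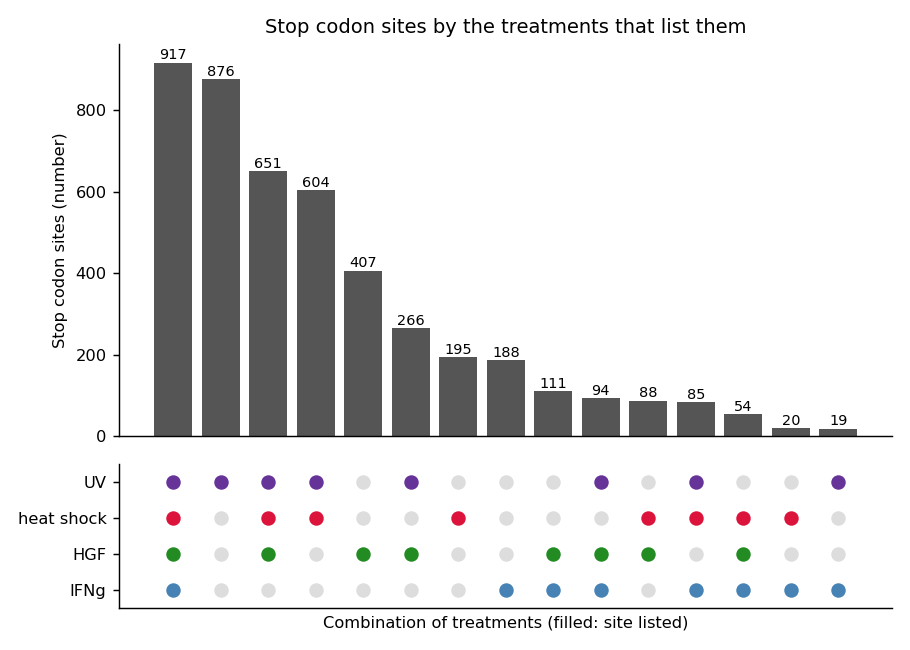
Number of stop codon sites (y axis, upper panel) for each combination of treatments that lists them (filled dots, lower panel). The 917 sites in all 4 treatments are the largest group, followed by 876 sites with UV alone and 651 with UV, heat shock and HGF.

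By pairs of treatments, 86.2% (84.8 to 87.5%) of the heat shock peaks had a UV peak within 100 nt in the same model, and 64.1% (62.5 to 65.7%) of the UV peaks had a heat shock peak. Of the IFNg peaks, 78.7% (76.6 to 80.8%) had an HGF peak, and 45.1% (43.2 to 47.0%) of the HGF peaks had an IFNg peak. The lowest share was that of UV peaks with an IFNg peak, 31.4% (29.9 to 33.0%), against 74.1% (71.8 to 76.3%) the other way. The stress treatments thus matched each other most, as did the ligand treatments when read from the shorter list. This was not particular to stop codon peaks. Of the coding peaks, 80.5% of those after heat shock had a UV peak and 66.8% of those with IFNg an HGF peak, again the highest shares for these lists.

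The closeness of positions inside shared sites is largely set by the choice of sites. Peaks were joined only where neighbouring positions lay within the joining distance, and the label itself keeps them near the stop codon. The ranges are therefore no result about m6A, while the pairs of treatments can be compared under the same rule. Within the 917 sites the range over the 4 treatments had a median of 24 nt, and 82.8% of the sites stayed within 50 nt. UV and heat shock positions differed by a median of 6 nt and HGF and IFNg positions by 9 nt, while the pairs of a stress with a ligand treatment differed by 12 to 14 nt. Positions were thus closest within the stress and within the ligand pair.

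Sites listed in more treatments had higher scores. The score is the authors' own peak score, with a formula that no label or header states and a lowest value of 2 in the table. In the UV list the median score was 3.32 for sites of 1 treatment, 4.07 for 2, 4.77 for 3 and 5.48 for 4. In the IFNg list it went from 2.71 over 2.79 and 3.02 to 3.40. The median expression percentile moved little along the same steps, at 79.8, 79.3, 78.7 and 81.8, while the median exon length went from 1372 over 1452.5 and 1604.5 to 1689 nt. These pooled values hide differences between lists. In the UV list the median percentile was 76.0 for sites of 1 treatment and 83.0 for sites of 4, and in the IFNg list the median exon length was 1244.5, 2105, 1852 and 1689 nt along the 4 steps. The score was higher at each step in every list, while exon length was so in the UV list alone.

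**Figure D4:**
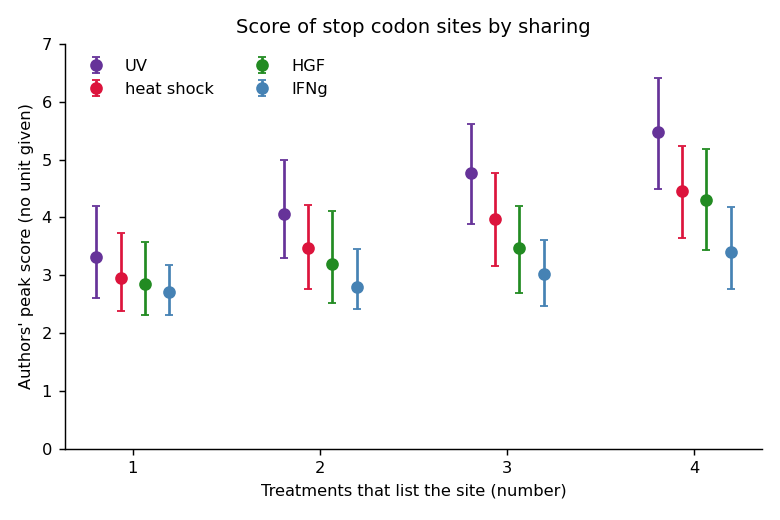
Authors' peak score of stop codon sites (y axis, no unit given) by the number of treatments that list the site (x axis), with points for the median and lines for the quartiles, 1 colour per treatment. In each list the median is higher with more treatments, from 3.32 to 5.48 after UV and from 2.71 to 3.40 with IFNg.

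The exons around the stop codon were long, between those of coding and 3′ UTR peaks. The median exon length at stop codon peaks was 1469 nt after UV, 1540.5 nt after heat shock, 1646 nt with HGF and 1691 nt with IFNg. Coding peaks had medians of 1297 to 1457 nt and 3′ UTR peaks of 2175 to 2276 nt over the same lists. Exons of 400 nt or more held 92.6 to 94.4% of the stop codon peaks. Of sites in exons of up to 400 nt, 37 of 360 were listed in all 4 treatments, 10.3% (7.34 to 13.9%), although these models had the highest median percentile, 89.7. The share was 18.5% (16.3 to 20.8%) between 400 and 1000 nt, 20.9% from there to 2000 nt, 22.5% to 4000 nt and 22.7% (18.97 to 26.7%) above 4000 nt, where the median percentile was 74.0. Scores followed length too: after UV the median went from 4.00 in exons of up to 850.75 nt to 4.98 in those above 2722.5 nt.

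The extremes of exon length among sites of all 4 treatments covered a wide span. The longest exon, 11400 nt, was that of SLC5A3, the myo-inositol transporter gene, whose site scored 6.80 after UV, 6.82 after heat shock, 7.37 with HGF and 3.56 with IFNg. VISA (the antiviral adaptor also called MAVS) had an exon of 10433 nt. The shortest was the 136 nt exon of RPL36, a ribosomal protein gene at percentile 99.4 or more in every treatment, with scores of 4.17, 2.71, 5.30 and 3.30 in the order UV, heat shock, HGF, IFNg. EPC1 had 205 nt and RGP1 224 nt. The SLC5A3 score was thus far above that of RPL36 in the UV and heat shock lists and nearly level with it in the IFNg list.

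Stop codon peaks had the highest median score of the 3 main labels in every list. After UV it was 4.41 (95% interval of the median 4.33 to 4.47), against 4.00 for coding and 4.01 for 3′ UTR peaks. After heat shock it was 3.91 (3.84 to 3.97) against 3.66 and 3.65, and with HGF 3.57 (3.51 to 3.63) against 3.23 and 3.35. With IFNg it was 3.16 (3.08 to 3.23) against 2.91 for coding and 3.11 (3.03 to 3.18) for 3′ UTR peaks, the last with overlapping intervals.

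The strongest sites were ordered by the mean over treatments of the score rank, the place of a site's score from 0 to 100 among the 2925 sites of any label with a peak in all 4 treatments, 916 of which held stop codon peaks. FAM53C (deposited span chr5:137701867-137713317, plus strand) was first, with scores of 7.996 after UV, 6.48 after heat shock, 6.65 with HGF and 6.42 with IFNg. PDE7A, a cAMP phosphodiesterase gene (chr8:66793867-66863883 as deposited), followed with 7.77, 7.67, 8.08 and 4.86 in the same order. FBXO45, the substrate receptor of a ubiquitin ligase, scored 7.56, 6.53, 6.35 and 5.36 in an exon of 4927 nt, with all positions between 965 and 973 nt of its transcript. These 3 sites were near the top of every list, at ranks of 91.3 or more.

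The other 7 were in WDR26 (a subunit of the CTLH ubiquitin ligase), ARF6 (a small GTPase of membrane traffic), PLOD2 (a collagen lysyl hydroxylase), SLC39A14 (a zinc transporter), STS (steroid sulfatase), CLINT1 (a clathrin adaptor) and BICC1 (an RNA-binding protein). Their mean ranks ran from 95.02 for WDR26 to 92.5 for BICC1. SLC39A14 was less even than the rest, with ranks of 99.5, 99.0 and 99.1 after UV and with HGF and IFNg and of 78.8 after heat shock. In WDR26 the IFNg rank of 83.0 was the lowest of the 4.

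Scores differed in level between the 4 lists. The highest score of a site was the UV score at 622 of the 916 sites (67.9%) and the lowest was the IFNg score at 601 (65.6%). Ranks were therefore compared. Across sites, which are not independent replicates and whose treatments each rest on 1 library pair, Spearman's rho was 0.67 between UV and heat shock, 0.54 between HGF and IFNg, 0.44 for UV with HGF and for heat shock with HGF, and 0.25 for either stress with IFNg. The order of the sites was therefore closest within the stress and within the ligand treatments. The 2009 other sites had the same pattern, with rho of 0.70 for UV and heat shock and 0.51 for HGF and IFNg. For UV and for heat shock with IFNg it was 0.31 and 0.29, so the pattern was not particular to stop codon sites.

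A site was counted as standing apart in a treatment when its rank was at least 25 points above or below each of the other 3. After UV 41 stop codon sites stood above and 23 below, 4.48% and 2.51%, beside 3.97% and 3.08% over all 2925 sites. After heat shock 28 stood above (3.06% beside 3.38%) and 40 below (4.37% beside 2.91%). With HGF 28 stood above (3.06% beside 3.18%) and 33 below (3.60% beside 3.69%), and with IFNg 69 above (7.53% beside 7.62%) and 66 below (7.21% beside 8.0%). These shares were near the background, apart from the heat shock losses, where the interval of 3.14 to 5.90% lay above the 2.24% (1.64 to 2.99%) of sites without a stop codon peak. With ranks taken among the stop codon sites alone, heat shock had 38 above and 34 below, so its excess of losses depended on the ranking.

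The sites with the largest gains and losses had no replicate behind them. After UV the largest gain was in CTSB, the gene of the lysosomal protease cathepsin B, with a score of 7.05 after UV, 3.14 after heat shock, 2.02 with HGF and 2.18 with IFNg. Its rank of 90.7 was 74.2 points above the nearest other. L1CAM, a neural cell adhesion molecule, scored 6.70 against 2.98, 2.98 and 2.28, and IL27RA, a cytokine receptor chain, 7.74 against 4.02, 3.90 and 3.06. The CTSB and L1CAM models were at percentile 76.6 or more and 94.4 or more in all 4 treatments. The relation of these scores to expression was not tested.

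DUSP5, a phosphatase of ERK, was among the largest losses after UV. Its scores were 4.68 after UV, 5.88 after heat shock, 5.13 with HGF and 6.28 with IFNg, an order unlike the usual one in which UV is highest. The DUSP5 model had low expression ranks, at percentile 58.3, 49.1, 23.1 and 69.0 in the same order, and was near the floor with HGF. The other losses after UV were TMEM79, at rank 5.75 against 60.6 to 67.3, and CDC2L5 (a cyclin-dependent kinase, now CDK13), at 26.0 against 72.3 to 95.9.

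After heat shock the gains were led by CDCA8 (borealin, of the chromosomal passenger complex), with a rank of 77.6 against 5.27 to 21.8. KLF5, a zinc finger transcription factor of epithelia, scored 6.68 after heat shock, 5.05 after UV, 2.92 with HGF and 2.98 with IFNg, and CHRAC1, a histone-fold subunit of a chromatin remodeller, followed. The losses were CAMSAP1, a protein of microtubule minus ends, with a rank of 21.7 against 85.7 to 97.6, then ITGA6 (integrin alpha 6) at 39.8 against 87.9 to 93.4 and C17orf39 at 18.9 against 66.1 to 93.8. KLF5 was at percentile 91.5 or more in every treatment.

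With HGF the largest gain was in EGLN1, the prolyl hydroxylase that marks HIF alpha subunits. Its scores were 6.18 with HGF, 4.04 after UV, 2.78 after heat shock and 2.57 with IFNg, at positions 4607 to 4613 nt. KLHL36 and BCL2L13 followed, at ranks of 78.01 and 89.98. The losses were EIF2C2 (Argonaute 2, the slicer of RNA interference), with a rank of 1.23 against 65.5 to 98.1, EMG1, a ribosomal RNA methyltransferase, and KAT5, the acetyltransferase TIP60. The EIF2C2 peak of the HGF list lay at 2600 nt, before those of the other lists at 2648 to 2702 nt, whereas the KAT5 positions ran from 1929 to 1943 nt.

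With IFNg the gains were GPR161 (a receptor of the primary cilium), C3orf38 and TSC22D1 (a leucine zipper regulator). TSC22D1 scored 4.61 with IFNg, 2.81 after UV, 2.70 after heat shock and 3.17 with HGF, at positions 2 nt apart. The losses were PCYOX1, a prenylcysteine oxidase gene, at rank 1.47 against 73.3 to 92.0, CCDC117 at 1.06 against 70.5 to 94.8, and RAP2C, a Ras family GTPase, at 18.7 against 87.8 to 95.2. In RAP2C the IFNg peak was at 1295 nt and the UV peak at 1433 nt, so the joined site covers distinct positions.

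**Figure D5:**
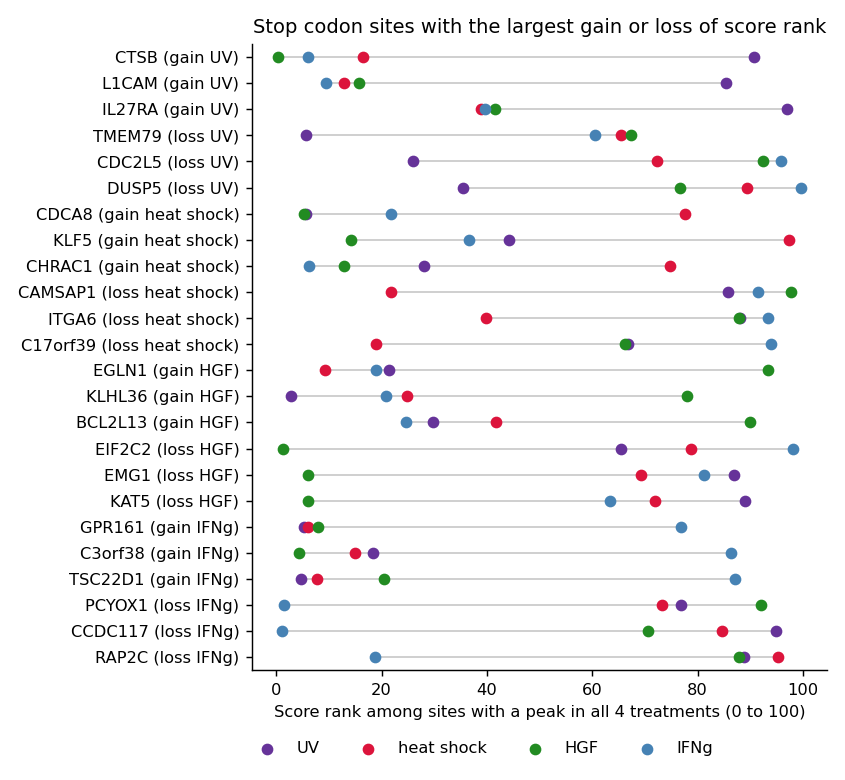
Score rank (x axis, 0 to 100, among 2925 sites with a peak in all 4 treatments) of the stop codon sites with the 3 largest gains and losses in each treatment (y axis), with 1 dot per treatment and a line over their range. The sites were chosen for this separation; CTSB, for example, has a UV rank of 90.7 and ranks of 0.376 to 16.4 in the other lists.

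Some sites had a high score and were listed as stop codon sites in 1 treatment, in models at percentile 75 or more in all 4. Peaks of other labels near them were not counted. After UV these were PA2G4 (the growth regulator EBP1, score 6.29), IPO8 (a nuclear import receptor, 6.25) and PARL (a mitochondrial rhomboid protease, 6.23). Heat shock alone listed CKAP5 (a microtubule polymerase, 6.92), CALU (calumenin, a calcium-binding protein of the secretory pathway, 6.66) and RBM28 (5.94). HGF alone listed BAG4, a co-chaperone gene, at 6.46, C11orf30 (EMSY) at 5.47 and ELF2, an ETS factor, at 5.39. IFNg alone listed ZNF410 at 4.90 and MBD2, a reader of methylated DNA, at 4.46. The CKAP5 and CALU models were at percentile 92.3 or more in every treatment.

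A gene usually had a single stop codon site: 3787 genes had 1, 325 had 2, 6 had 3 and 1 had 4. PYGO2, a Wnt co-activator, had the 4 sites, each listed in 1 treatment with a score of 2.12 to 3.14. Of the genes with 3, C3orf21 scored 5.05 after heat shock and 5.50 with HGF at separate positions, and 6.36 and 4.09 at a site listed after UV and with IFNg. FEM1A, a substrate receptor of a ubiquitin ligase, had 3 sites with scores of 2.05 to 2.24.

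Named gene groups were then read against coding genes, of which 21.5% had a stop codon site in at least 1 treatment. By list, the share of coding genes with a site was 17.5% after UV, 13.0% after heat shock, 12.9% with HGF and 7.43% with IFNg. Counts of a group by list are to be read beside these shares, which cover coding genes of every expression rank. At a mean percentile of 75 or more, 43.9% of genes had a stop codon site in at least 1 treatment and 11.1% had one in all 4. The groups are small, their members share no test, and the counts are descriptions.

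Immediate early genes, which respond within minutes to growth factors and stress, often had a site. Of the 17 at percentile 75 or more, 15 had a stop codon site and 8 had one in all 4 treatments, and 20 of all 29 measured had one. The site of MYC, the growth-regulating transcription factor, scored 2.10 after UV, 3.59 after heat shock, 5.70 with HGF and 5.46 with IFNg, in a model at percentile 97.3 or more throughout. CYR61, a matricellular protein, scored 4.23, 3.84, 5.19 and 6.28 in the same order. DUSP1, a MAP kinase phosphatase, had 4.71, 3.16, 5.21 and 4.35. In MYC and CYR61 the ligand treatments thus scored above both stress treatments, against the usual order of the lists. NR4A2 scored 5.08, 4.46, 5.08 and 4.66, and KLF10, a TGF-beta induced factor, 5.59, 5.05, 3.17 and 4.02. The KLF10 peaks lay at 1545, 1537, 1404 and 1469 nt, so its joined site covers distinct positions.

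Secreted liver proteins had no stop codon site among 30 measured genes, of which 1 was at percentile 75 or more. Of 23 liver transcription factors 8 had a site, 4 of them in all 4 treatments, and all 4 members at percentile 75 or more had one. CEBPA scored 5.35, 5.17, 5.45 and 4.63 in the order UV, heat shock, HGF, IFNg. RXRA, the partner of many nuclear receptors, scored 6.22, 3.81, 4.56 and 3.86. FOXA1, a pioneer factor, scored 3.29, 3.94, 3.44 and 4.63, and TBX3 3.40, 3.57, 2.52 and 2.92. The TBX3 peaks lay at 3050, 3052, 3144 and 3145 nt, so the stress and ligand scores may belong to distinct positions. ONECUT2 had a site in 3 treatments.

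Among genes of the m6A machinery 9 of 19 at percentile 75 or more had a stop codon site and none had one in all 4 treatments. RBM15B, a subunit of the methyltransferase complex, scored 3.94 after heat shock, 6.60 with HGF and 5.41 with IFNg and was not listed after UV. ELAVL1 (the RNA-binding protein HuR) scored 5.14, 3.78 and 3.78 after UV, heat shock and with HGF. ALKBH5, the demethylase, and CBLL1 (the writer subunit HAKAI) had scores of 2.13 to 2.65 in the 3 lists that held them. YTHDF3, a reader, was listed with HGF at 5.27 and with IFNg at 3.61. The lists that held a site thus differed from gene to gene.

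Of 43 IFNg response and antigen presentation genes 13 had a stop codon site, 7 of them listed with IFNg, 7 after UV, 3 after heat shock and 2 with HGF. At percentile 75 or more 7 of 14 had one, near the 43.9% of coding genes at that level. TAP2 alone had a site in all 4 treatments. Its scores were 5.67 after UV, 5.42 after heat shock, 3.82 with HGF and 2.80 with IFNg, while its expression percentile was 73.8, 68.4, 75.8 and 97.4. The list with the highest expression rank thus had the lowest score, in the usual order of the lists. IRF1, the transcription factor at the centre of the response, was listed with IFNg alone at 3.27, where its percentile was 98.8, against 57.7 to 68.7 in the other treatments. NLRC5, the activator of MHC class I genes, scored 4.50 after UV, 4.59 with HGF and 3.71 with IFNg, with percentiles of 58.2, 67.1 and 91.7. IFNGR2, a receptor chain for IFNg, was listed after UV at 5.39 and after heat shock at 4.68.

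Heat shock response genes had sites in 18 of 36, and 3 in all 4 treatments. At percentile 75 or more 16 of 27 had one. The inducible chaperone HSPA1A scored 6.53 after UV, 6.93 after heat shock and 3.65 with IFNg and was not listed with HGF, where its percentile of 91.2 was close to the 91.7 after heat shock. Its near-identical copy HSPA1B can share reads, so this value is uncertain. DNAJA1, a co-chaperone, scored 6.39, 4.95, 3.40 and 2.21 in the order UV, heat shock, HGF, IFNg, and DNAJB1 4.94, 3.45, 5.53 and 3.40. DNAJB9, of the endoplasmic reticulum, scored 6.03, 4.39, 5.80 and 3.98, and HSPA4 was listed in 3 treatments at 7.09, 4.66 and 3.62.

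Of 32 p53 and DNA damage genes 10 had a site, 6 listed after UV, 4 after heat shock, 8 with HGF and 6 with IFNg, and 6 of the 15 at percentile 75 or more had one. PPM1D, a phosphatase that dampens the response, scored 5.75, 4.83, 4.70 and 4.47, MDM4, an inhibitor of p53, 5.87, 5.53, 4.57 and 3.23, and the cell death gene PMAIP1 4.52, 4.28, 5.12 and 4.28, all in the order UV, heat shock, HGF, IFNg. TNFRSF10B and TP53I3 were listed in 3 treatments each. The UV and heat shock counts were close to the 17.5% and 13.0% of coding genes with a site in those lists. The HGF and IFNg counts were above the 12.9% and 7.43% of theirs. Those shares are over coding genes of every expression rank. At percentile 75 or more, the 6 of 15 stood beside 43.9% of coding genes at that level, so no excess was seen there. These small counts were not tested.

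Of 35 genes of MET and ERK signalling 14 had a site, 11 listed after UV, 9 after heat shock, 8 with HGF and 9 with IFNg. At percentile 75 or more 10 of 14 had one. MET itself was listed after UV at 4.53, after heat shock at 5.52 and with HGF at 3.503, and not with IFNg, with percentiles of 95.2 or more in all 4. SOS1, an exchange factor for RAS, scored 5.82, 5.86, 4.37 and 5.18 in the order UV, heat shock, HGF, IFNg. HRAS was listed in 3 treatments at 6.31, 3.59 and 3.22, and DUSP4 after UV, after heat shock and with IFNg at 4.25, 3.57 and 4.54. The DUSP4 model was at the expression floor after UV, percentile 45.5, and at 72.2 after heat shock and 88.0 with IFNg.

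Glycolytic and housekeeping genes, nearly all of high rank, had a site in 10 of 29 at percentile 75 or more and in all 4 treatments in 1. That gene was EEF2, the elongation factor of translation, with 5.61 after UV, 4.34 after heat shock, 3.01 with HGF and 2.52 with IFNg. The glycolytic enzymes GPI, PFKP and PFKL were listed after UV and heat shock at scores of 2.26 to 4.80, and HK2 with IFNg at 4.86. By list, 6 members had a site after UV, 6 after heat shock, 1 with HGF and 3 with IFNg.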

How the data were processed

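The source was 1 deposited table of peaks for 4 treatments. Per the file headers, the authors gave for each gene model an expression quantile, which is a fraction from 0 to 1 and is written here as a percentile, and for each peak a transcript position, exon number, exon length, segment and score. The score is the authors' own deposited value. Scores of 1 site are also printed side by side across lists. Their level differs between lists, so such values are read beside the usual order of the lists and not as amounts of methylation. For the aligner, peak caller, pooling and genome build, names are not given in the sources used here. Coordinates are not those of GRCh38 and are printed as deposited, with starts counted from 1. Whether the quantile comes from input or precipitated RNA is not stated either.

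Peaks of a model within 100 nt were joined into sites. Genes named were the 10 sites of highest mean score rank, the 3 largest rank gains and losses and the 3 highest sites of each single treatment, the 3 longest and shortest exons, the 3 genes with most sites, and up to 5 members of each gene list. The members and lists were chosen with earlier results of these data known. The score rank and the 25 point mark stand in for an enrichment fold. Symbols changed to dates by a spreadsheet (5) were not named. Some genes that this rule names are not reported here. Python 3.11.15, pandas 2.3.3, NumPy 2.4.6 and SciPy 1.17.1 were used, and the steps were tested on simulated data. The alternatives were other joining distances, a score of 3 or more, well expressed models, other rank marks and other motif windows.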

Additional observations from a re-analysis of the deposited data

How the results depend on the processing

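With 1 library pair per treatment, unknown depth and no peak listed under a score of 2, the absence of a listed peak says nothing certain about the RNA. No paired analysis was possible because each group held 1 sample and no result came from a test. The matched models are few and have longer exons than the rest. Some orders turned: ranks among stop codon sites alone gave heat shock 38 gains and 34 losses, and with IFNg losses passed gains at 15 points. The HGF share around the stop codon, above that of IFNg in the full lists, was 25.7% against 28.6% in models with peaks in every list. Of the main results under these settings 55 values stayed within their interval or within 1.5 times the count, and 49 moved. With scores of 3 or more, the share of peaks around the stop codon was 28.8, 29.1, 32.7 and 31.98% (UV, heat shock, HGF, IFNg), the median exon lengths were 1567, 1680, 1808.5 and 1857 nt, 507 sites (14.3%) were listed in all 4 treatments, and 22.95% of UV peaks had an IFNg peak. Restricted to models that every list gave a peak, the first 3 of these shares were 22.9, 24.6 and 25.7%. The share of sites in all 4 treatments was 17.8% with joining at 50 nt, 21.8% at 200 nt, 22.2% where peaks of any label could match and 23.1% at a mean percentile of 75 or more. UV peaks with an IFNg peak made up 28.7% at 50 nt and 37.2% at percentile 75 or more, and heat shock peaks with a UV peak 84.03% at 50 nt, 87.6% at 200 nt and 87.7% with any label. Median scores were 5.48 (UV), 4.45 (heat shock), 4.30 (HGF) and 3.40 (IFNg) over sites in all 4 treatments, and 4.29, 3.84 and 3.45 for the first 3 lists at percentile 75 or more. At a mark of 15 points, 89 sites stood above and 59 below after UV, 74 and 83 after heat shock, 66 and 74 with HGF, and 124 and 126 with IFNg. At 35 points these were 14 and 4, 13 and 16, 7 and 15, and 36 and 36. GGACT was found at 14.9% of peaks within 25 nt and at 40.6% within 100 nt, and GGAC within 50 nt at 64.2%. Counting each site once was an alternative chosen after seeing the data. The cause of these shifts was not tested, apart from the smaller or larger sets and windows that the settings themselves make.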
